A study of Mus musculus with 20 samples.

Results

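The 36 genes described here mark T cells, cytotoxic and natural killer (NK) cells, B cells and antibody-secreting plasma cells, and they were chosen by symbol from the 36106 genes of a count table of mouse liver. They comprise 12 T cell markers, 13 cytotoxic and NK cell markers, 6 B cell markers, and 5 plasma cell and immunoglobulin genes. The choice was made with earlier results of these data known. Liver messenger RNA was sequenced in male mice in 4 groups: orchiectomy with intermittent hypoxia (ORX_IH, n = 5), orchiectomy with normoxia (ORX_Nx, n = 5), sham surgery with intermittent hypoxia (Sham_IH, n = 5) and sham surgery with normoxia (Sham_Nx, n = 4). Orchiectomy removes the testes and with them most testosterone, and intermittent hypoxia, repeated drops in inspired oxygen, is used as a model of sleep apnoea. Exposure lasted 2 weeks in every group. Strain and age are not given in the sources used here. Each library carries its own mouse number in the labels, and Sham_Nx mouse 1 was not analysed here. Nothing states whether mice of a group shared a cage or a litter, so the p-values measure only the spread between these libraries.

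The liver holds resident lymphocytes in its sinusoids, among them many NK cells and T cells, together with B cells. T cells recognise antigen through a receptor coupled to the CD3 chains and the kinases Lck and Zap70. NK cells and cytotoxic T cells kill targets with perforin and granzymes. B cells signal through surface immunoglobulin coupled to CD79A and CD79B, and plasma cells secrete immunoglobulin joined by the J chain.

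Libraries held 29.3 to 69.6 M estimated counts each, so that 3 counts, taken as the detection floor, correspond to 0.0413 to 0.108 CPM, the count of a gene per M counts of its library, which covers counting error only. Androgen-dependent genes matched the labels: Cyp2d9 lay at 117 to 467 CPM in ORX_IH, 60.8 to 213 CPM in ORX_Nx, 876 to 1167 CPM in Sham_IH and 950 to 1058 CPM in Sham_Nx. A total of 33 of the 36 markers passed the filter on low counts that left 16164 genes to test. Cd8b1, Eomes and Gzmk, with at most 15.4, 19.2 and 4.00 estimated counts in any of the 19 libraries, did not. A marker can pass that filter through a single group in which it is high, so counts below refer to the markers tested.

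The lymphocyte markers were scarce transcripts in this tissue. Set on a per-length scale, the mean level over all libraries was highest for Igkc, the kappa light chain, at 11.5 CPM per kilobase, followed by Ighm, the heavy chain of IgM, at 5.04 CPM per kilobase. Zap70, a kinase of T and NK cells, came next at 3.77 CPM per kilobase, above the other T cell markers, of which Lck was at 0.751 and Cd3e at 0.349 CPM per kilobase. The lowest was Gzmk, granzyme K, at 0.0117 CPM per kilobase. By group mean CPM, ORX_Nx was highest for 24 of the 33 markers tested, and Sham_IH was lowest for 22, including 6 of 6 B cell markers. In bulk tissue, fewer cells of a type and less RNA per cell cannot be told apart.

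3 libraries stood apart in these genes. ORX_Nx 5 was the highest of the 19 libraries for 22 of the 33 markers, among them 10 of 11 cytotoxic and NK and 8 of 11 T cell markers. ORX_IH 1 was highest for 6 markers, 3 of them B cell markers, and ORX_Nx 4 for 3. ORX_IH 1 also held skeletal muscle genes at a summed 954.6 CPM and pancreatic acinar genes at 237.6 CPM, where the median of its group was 1.33 CPM for the muscle and 8.55 CPM for the pancreatic genes. It was not alone in this. The 4 libraries highest in muscle genes were ORX_IH 1, ORX_IH 2, Sham_Nx 2 and Sham_Nx 3. The 3 highest in pancreatic genes were Sham_IH 5, Sham_Nx 5 and ORX_IH 1. Pancreatic genes reached 1367 CPM in Sham_IH and 579 CPM in Sham_Nx. ORX_Nx 4 held 47.6 CPM of neutrophil genes, and 1186 CPM of macrophage and Kupffer cell genes, where the median of its group was 4.48 CPM for the neutrophil and 503 CPM for the macrophage genes. For the 33 markers, counts called for orchiectomy are given with and without ORX_IH 1, ORX_Nx 4 and ORX_Nx 5. Counts for the other gene lists are given with all libraries only.

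**Figure D1:**
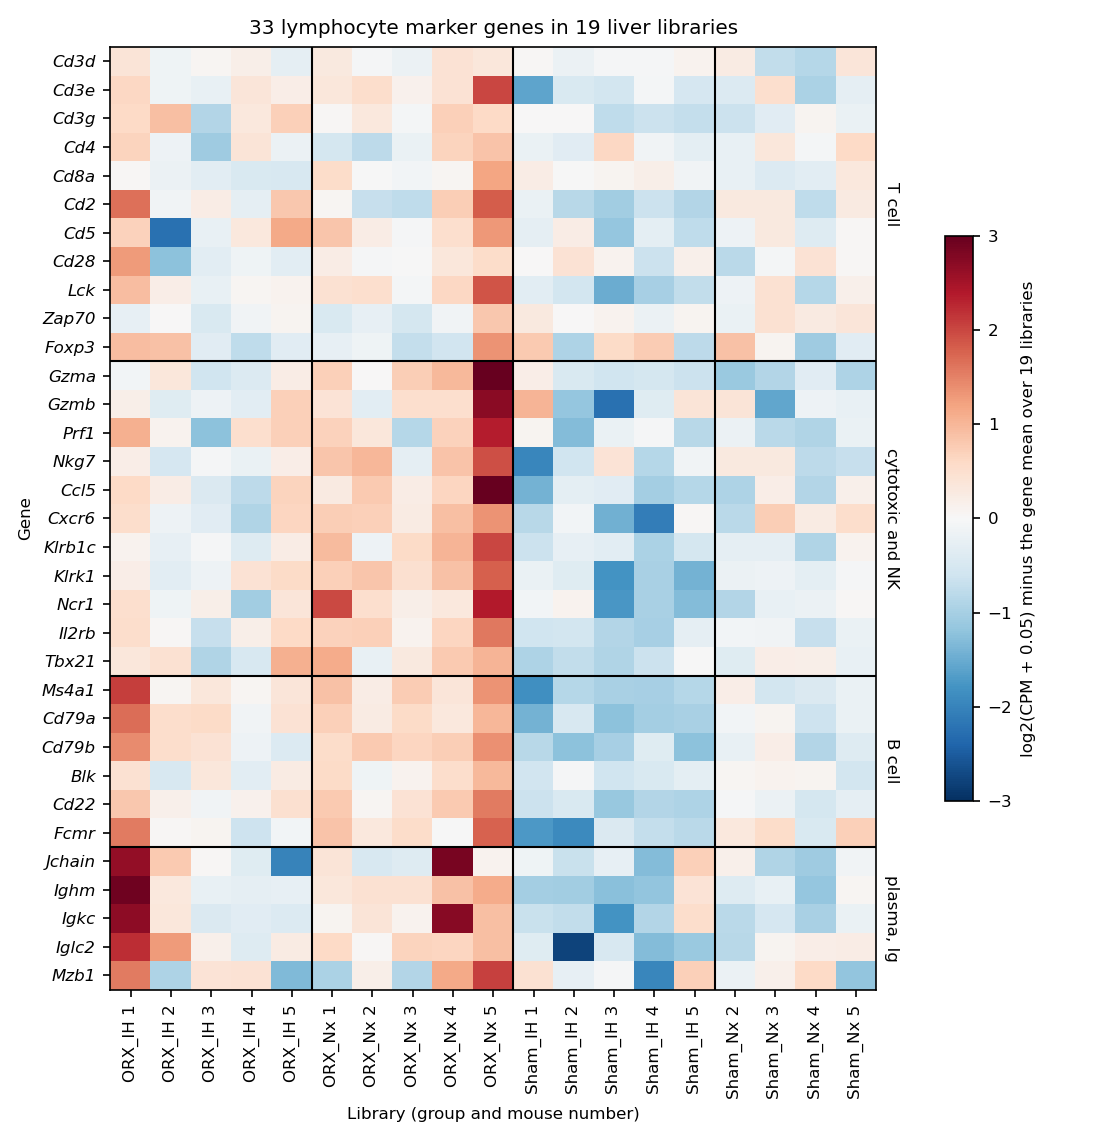
Level of the 33 tested markers (rows) in the 19 libraries (columns, by group and mouse number), as log2(CPM + 0.05) minus the mean of the gene over all libraries, with red above and blue below that mean and colours limited at 3. ORX_Nx 5 is the highest library for 22 of the 33 markers, and ORX_IH 1 and ORX_Nx 4 stand out in the immunoglobulin genes.

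Promoters are shown for 3 markers that were called for orchiectomy averaged over exposures and were picked for holding a match to a lymphocyte factor motif. The windows run from 250 bases before to 50 bases after the start of the gene, 5′ to 3′ on the strand of the gene, from RefSeq for build GRCm38.p6, an older build than the GRCm39 of the counts. Of the 36 markers, 23 had a promoter in that table. Capitals mark the match.
Cd79a, chr7:24897247-24897546, plus strand: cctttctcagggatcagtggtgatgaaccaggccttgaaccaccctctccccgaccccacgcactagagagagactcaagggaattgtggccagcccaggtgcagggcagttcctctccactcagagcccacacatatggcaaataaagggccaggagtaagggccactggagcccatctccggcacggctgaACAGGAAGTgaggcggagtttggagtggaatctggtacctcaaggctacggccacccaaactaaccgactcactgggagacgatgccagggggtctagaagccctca
Cd22, chr7:30878979-30879278, minus strand: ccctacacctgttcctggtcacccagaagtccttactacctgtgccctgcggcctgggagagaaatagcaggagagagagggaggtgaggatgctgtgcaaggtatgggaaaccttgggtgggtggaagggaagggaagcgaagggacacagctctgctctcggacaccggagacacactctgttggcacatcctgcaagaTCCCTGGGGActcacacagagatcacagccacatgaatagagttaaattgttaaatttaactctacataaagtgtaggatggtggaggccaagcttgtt
Gzma, chr13:113100932-113101231, minus strand: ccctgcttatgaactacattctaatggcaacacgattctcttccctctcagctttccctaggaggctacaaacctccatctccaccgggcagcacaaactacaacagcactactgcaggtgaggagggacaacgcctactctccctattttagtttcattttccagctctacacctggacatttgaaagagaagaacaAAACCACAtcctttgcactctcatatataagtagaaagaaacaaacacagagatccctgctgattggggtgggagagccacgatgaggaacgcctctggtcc
The match in Cd79a is the ETS motif ACAGGAAGT and begins 57 bases before the start. In Cd22 it is the early B cell factor (EBF) motif, TCCC and GGGA with any pair of bases between them, 49 bases before the start. In Gzma it is the RUNX motif TGTGGTTT, read on the other strand and beginning 52 bases before the start. Over both strands, the ETS motif was in 3 of the 28 promoters of the 23 genes (Cd3e, Lck and Cd79a) and in 1.03% of all 32851 promoters of the table. The EBF motif was in 1 gene and 0.904% of all promoters, and the RUNX motif in 1 gene and 1.78%. The T-box motif AGGTGTGA was in Nkg7 and in 1.28% of all promoters, and the octamer ATGCAAAT in none of the 23 genes and 1.74%. These letters describe the windows and do not show binding.

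B cell markers were higher in orchiectomized than in sham-operated livers. With the 2 exposures averaged, 6 of 6 rose (edgeR quasi-likelihood test, Benjamini-Hochberg adjusted p under 0.05 over all 16164 genes), with a median log2 fold change of 1.22, where the median over all genes tested was 0.00466. Over all markers 20 of 33 rose and 0 fell in this comparison, while 11.8% of all genes tested rose and 10.1% fell. Within normoxia (ORX_Nx against Sham_Nx) Cd79b and Cd22 rose, and within intermittent hypoxia (ORX_IH against Sham_IH) Ms4a1, Cd79a, Cd79b and Cd22 rose. Libraries of the 2 compared groups did not overlap for 11 of 33 markers in normoxia, against 12.3% of all genes tested, and for 4 of 33 under intermittent hypoxia, against 5.84%. The averaged comparison uses the same libraries as the separate ones and is not further evidence.

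Cd79a, a signalling chain of the B cell receptor, had 2.82, 1.24, 1.29, 0.784 and 1.15 CPM in ORX_IH, 1.42, 1.01, 1.29, 1.06 and 1.73 CPM in ORX_Nx, 0.287, 0.595, 0.330, 0.390 and 0.409 CPM in Sham_IH and 0.791, 0.900, 0.533 and 0.726 CPM in Sham_Nx. Every ORX_Nx library lay above every Sham_Nx library, and every ORX_IH library above every Sham_IH library. The log2 fold change was 1.84 ± 0.31 (SE) under intermittent hypoxia (adjusted p = 0.00198, edgeR) and 0.82 ± 0.31 in normoxia (adjusted p = 0.0843, edgeR).

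Ms4a1, which encodes the B cell surface protein CD20, had 2.90, 0.670, 0.826, 0.678 and 0.849 CPM in ORX_IH, 1.24, 0.768, 1.13, 0.843 and 1.73 CPM in ORX_Nx, 0.144, 0.335, 0.302, 0.302 and 0.337 CPM in Sham_IH and 0.750, 0.422, 0.468 and 0.554 CPM in Sham_Nx. Orchiectomized and sham libraries did not overlap within either exposure, and ORX_IH 1 was far above its group. Its log2 fold change was 2.03 ± 0.40 under intermittent hypoxia (adjusted p = 0.00876, edgeR) and 1.05 ± 0.41 in normoxia (adjusted p = 0.09, edgeR).

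Cd22, an inhibitory receptor of B cells that binds sialic acid, had 3.30, 2.09, 1.74, 2.03 and 2.60 CPM in ORX_IH, 3.23, 1.93, 2.53, 3.23 and 5.59 CPM in ORX_Nx, 1.19, 1.34, 0.825, 0.994 and 0.959 CPM in Sham_IH and 1.82, 1.63, 1.28 and 1.54 CPM in Sham_Nx. The groups did not overlap within either exposure. It rose by 1.15 ± 0.25 on the log2 scale under intermittent hypoxia (adjusted p = 0.0149, edgeR) and by 1.07 ± 0.26 in normoxia (adjusted p = 0.0117, edgeR). Cd79b, the partner chain of Cd79a, had 2.26, 1.19, 1.12, 0.723 and 0.603 CPM in ORX_IH, 1.20, 1.44, 1.29, 1.39 and 2.18 CPM in ORX_Nx, 0.431, 0.316, 0.385, 0.621 and 0.320 CPM in Sham_IH and 0.689, 0.936, 0.420 and 0.605 CPM in Sham_Nx. ORX_Nx lay wholly above Sham_Nx, and ORX_IH overlapped Sham_IH through its lowest library. It rose by 1.51 ± 0.33 under intermittent hypoxia (adjusted p = 0.0186, edgeR) and by 1.17 ± 0.34 in normoxia (adjusted p = 0.0302, edgeR).

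Fcmr, the receptor for the Fc part of IgM, had 1.12, 0.361, 0.372, 0.211 and 0.329 CPM in ORX_IH, 0.669, 0.449, 0.536, 0.343 and 1.31 CPM in ORX_Nx, 0.0718, 0.0558, 0.247, 0.195 and 0.178 CPM in Sham_IH and 0.446, 0.532, 0.242 and 0.605 CPM in Sham_Nx. The Sham_IH mean was the lowest of the 4, and the groups overlapped in both exposures. It rose by 1.09 ± 0.36 averaged over exposures (adjusted p = 0.0361, edgeR). Blk, a Src-family kinase of B cells, had 1.10, 0.541, 0.992, 0.618 and 0.932 CPM in ORX_IH, 1.19, 0.712, 0.839, 1.14 and 1.56 CPM in ORX_Nx, 0.503, 0.763, 0.495, 0.550 and 0.622 CPM in Sham_IH and 0.811, 0.844, 0.824 and 0.519 CPM in Sham_Nx. Groups overlapped in both exposures, and its averaged rise of 0.52 ± 0.18 was the smallest of the 20 (adjusted p = 0.0472, edgeR).

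The count of B cell markers rested partly on single libraries. Without ORX_IH 1, ORX_Nx 4 and ORX_Nx 5, a comparison added after the data were seen, 4 of the 6 still rose in the averaged comparison: Ms4a1 by 1.15, Cd79a by 1.10, Cd79b by 1.06 and Cd22 by 0.85 on the log2 scale. Without these libraries Blk was at 0.33 (adjusted p = 0.228, edgeR) and Fcmr at 0.66 (adjusted p = 0.121, edgeR). In ORX_IH against Sham_IH, which holds only ORX_IH 1 of these libraries, the same 4 genes also remained called without them. With ORX_IH 1 alone left out, Cd79b and Cd22 lost their call in that comparison, while Ms4a1 and Cd79a kept theirs. When single libraries were left out, the averaged call was kept in 5 of 19 fits for Blk and 13 of 19 for Fcmr.

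**Figure D2:**
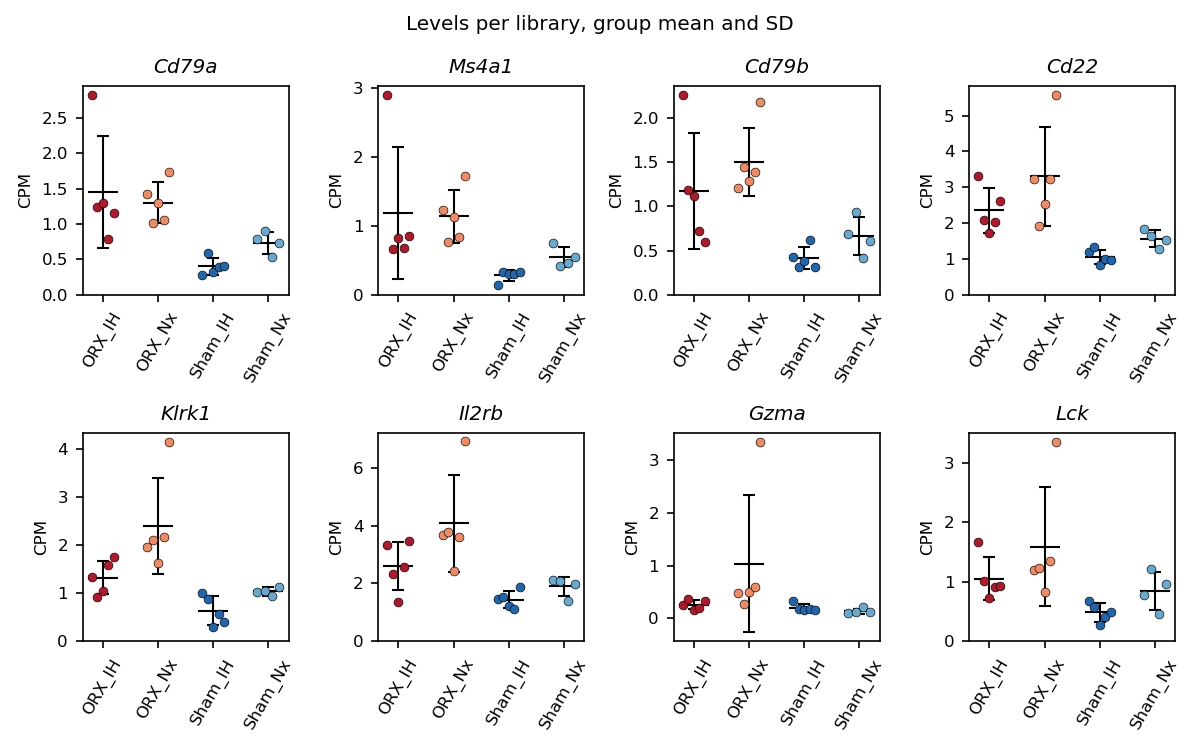
CPM in each library (points) with the group mean and SD (bar and whiskers) for 4 B cell markers (upper row) and for Klrk1, Il2rb, Gzma and Lck (lower row), on linear axes that start at 0 or below. Cd79a, Ms4a1 and Cd22 separate orchiectomized from sham livers within each exposure, and the highest Gzma value, 3.35 CPM, is ORX_Nx 5.

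Cytotoxic and NK cell markers were also higher after orchiectomy. With exposures averaged 8 of 11 rose, against 11.8% of all genes tested, with a median log2 fold change of 1.04. In ORX_Nx against Sham_Nx 5 of the 11 rose (Gzma, Ccl5, Klrb1c, Klrk1 and Il2rb), among 7 of all 33 markers, while 7.88% of all genes tested rose. In ORX_IH against Sham_IH 5 of all 33 markers rose, against 1.31% of all genes tested, and 0 of the 11 cytotoxic and NK markers were among them, with 3 at an unadjusted p under 0.05, as were 17.2% of all genes tested. The difference between the 2 exposures, tested as an interaction, was called for 0 of the 33 markers and for 0% of all genes (edgeR), with 4 markers at an unadjusted p under 0.05, against 6.34% of all genes. DESeq2 and limma-voom also called 0 markers in the interaction.

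Klrk1, the activating receptor NKG2D, had 1.34, 0.928, 1.05, 1.58 and 1.75 CPM in ORX_IH, 1.96, 2.12, 1.64, 2.19 and 4.16 CPM in ORX_Nx, 1.01, 0.893, 0.302, 0.568 and 0.409 CPM in Sham_IH and 1.03, 1.05, 0.937 and 1.14 CPM in Sham_Nx. Every ORX_Nx library was above every Sham_Nx library, while ORX_IH overlapped Sham_IH in its lowest library. The averaged rise was 1.14 ± 0.22 on the log2 scale (adjusted p = 0.00167, edgeR). Il2rb, the beta chain shared by the receptors for IL-2 and IL-15, had 3.31, 2.32, 1.38, 2.58 and 3.45 CPM in ORX_IH, 3.68, 3.76, 2.43, 3.59 and 6.93 CPM in ORX_Nx, 1.47, 1.54, 1.21, 1.12 and 1.88 CPM in Sham_IH and 2.13, 2.09, 1.39 and 1.97 CPM in Sham_Nx. ORX_Nx again lay wholly above Sham_Nx, and ORX_IH overlapped Sham_IH. It rose by 0.97 ± 0.19 averaged (adjusted p = 0.00216, edgeR).

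Gzma, granzyme A, had 0.259, 0.361, 0.165, 0.196 and 0.329 CPM in ORX_IH, 0.485, 0.281, 0.495, 0.593 and 3.35 CPM in ORX_Nx, 0.323, 0.186, 0.165, 0.177 and 0.160 CPM in Sham_IH and 0.101, 0.129, 0.210 and 0.121 CPM in Sham_Nx. The ORX_Nx libraries were above all Sham_Nx libraries, with ORX_Nx 5 far above the rest, while ORX_IH and Sham_IH overlapped. Its log2 fold change was 2.83 ± 0.62 in normoxia (adjusted p = 0.00741, edgeR) and 0.38 ± 0.58 under intermittent hypoxia (adjusted p = 0.789, edgeR). The interaction was -2.45 ± 0.84 (unadjusted p = 0.00923, adjusted p = 0.702, edgeR). Without ORX_IH 1, ORX_Nx 4 and ORX_Nx 5 the normoxia value was 1.56 (adjusted p = 0.0206, edgeR).

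Ccl5, a chemokine of activated T and NK cells, had 1.31, 1.01, 0.620, 0.467 and 1.37 CPM in ORX_IH, 1.04, 1.50, 0.990, 1.36 and 8.10 CPM in ORX_Nx, 0.287, 0.688, 0.660, 0.390 and 0.444 CPM in Sham_IH and 0.426, 0.973, 0.436 and 0.951 CPM in Sham_Nx. ORX_Nx did not overlap Sham_Nx, and ORX_Nx 5 was several times its group mates. It rose by 1.87 ± 0.58 in normoxia (adjusted p = 0.0391, edgeR), and without the 3 libraries that stood apart the value was 0.75 (adjusted p = 0.258, edgeR). Klrb1c, a lectin-like receptor of NK cells, had 0.274, 0.206, 0.248, 0.181 and 0.301 CPM in ORX_IH, 0.535, 0.225, 0.399, 0.562 and 1.17 CPM in ORX_Nx, 0.144, 0.205, 0.192, 0.106 and 0.160 CPM in Sham_IH and 0.203, 0.202, 0.113 and 0.277 CPM in Sham_Nx. The groups overlapped in both exposures. It rose by 1.51 ± 0.40 in normoxia (adjusted p = 0.018, edgeR).

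Prf1, perforin, had 0.404, 0.180, 0.0413, 0.256 and 0.301 CPM in ORX_IH, 0.301, 0.225, 0.0688, 0.297 and 1.06 CPM in ORX_Nx, 0.180, 0.0372, 0.137, 0.160 and 0.0710 CPM in Sham_IH and 0.142, 0.0734, 0.0646 and 0.138 CPM in Sham_Nx. ORX_Nx 5 was the highest library, and the groups overlapped. Ncr1, the NK receptor NKp46, had 0.187, 0.103, 0.138, 0.0301 and 0.164 CPM in ORX_IH, 0.602, 0.187, 0.138, 0.156 and 0.810 CPM in ORX_Nx, 0.108, 0.130, 0, 0.0355 and 0.0178 CPM in Sham_IH and 0.0406, 0.0918, 0.0969 and 0.121 CPM in Sham_Nx. ORX_Nx lay above Sham_Nx in every library, with values near the detection floor in several libraries of the other groups. Tbx21, the transcription factor T-bet, had 0.331, 0.361, 0.110, 0.166 and 0.575 CPM in ORX_IH, 0.602, 0.206, 0.316, 0.468 and 0.559 CPM in ORX_Nx, 0.108, 0.130, 0.110, 0.142 and 0.249 CPM in Sham_IH and 0.182, 0.294, 0.291 and 0.208 CPM in Sham_Nx. Its groups overlapped in both exposures. The averaged rises of these genes were 1.44 ± 0.48 for Prf1 (adjusted p = 0.0378), 1.56 ± 0.50 for Ncr1 (adjusted p = 0.0328) and 0.89 ± 0.30 for Tbx21 (adjusted p = 0.0431, all edgeR). When single libraries were left out, the call was kept in 9 of 19 fits for Prf1, in 10 of the 15 that could test it for Ncr1 and in 5 of 19 for Tbx21. Without the 3 libraries that stood apart Prf1 was at 0.82 (adjusted p = 0.226) and Tbx21 at 0.77 (adjusted p = 0.149, both edgeR). Gzmb, Nkg7 and Cxcr6 were at 0.88 ± 0.48, 0.84 ± 0.32 and 0.68 ± 0.31 and were not called.

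Without ORX_IH 1, ORX_Nx 4 and ORX_Nx 5, the averaged comparison called 8 markers in place of 20, and 7 of the 19 original calls that could still be tested remained, among them Gzma, Klrk1 and Il2rb. The eighth was a T cell marker, Zap70, which fell. Of all genes tested, 16.8% were called in that setting. In ORX_Nx against Sham_Nx 4 of 32 markers were called without them, against 9.09% of all genes tested. Of the original 7, Gzma and Cd22 remained, while Ms4a1 was newly called as higher and Zap70 as lower. Leaving out Sham_Nx 4 alone left 2 of 33 markers called in that comparison, against 6.94% of all genes tested. The share of markers called was then not above that of all genes. Leaving out ORX_IH 1 gave 11 of 32, against 14.3%. In ORX_IH against Sham_IH the count was 2 without ORX_IH 1, against 1.4% of all genes. It was 8 without ORX_Nx 5, against 4.38%, and 3 without Sham_IH 5, against 1.9%.

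**Figure D3:**
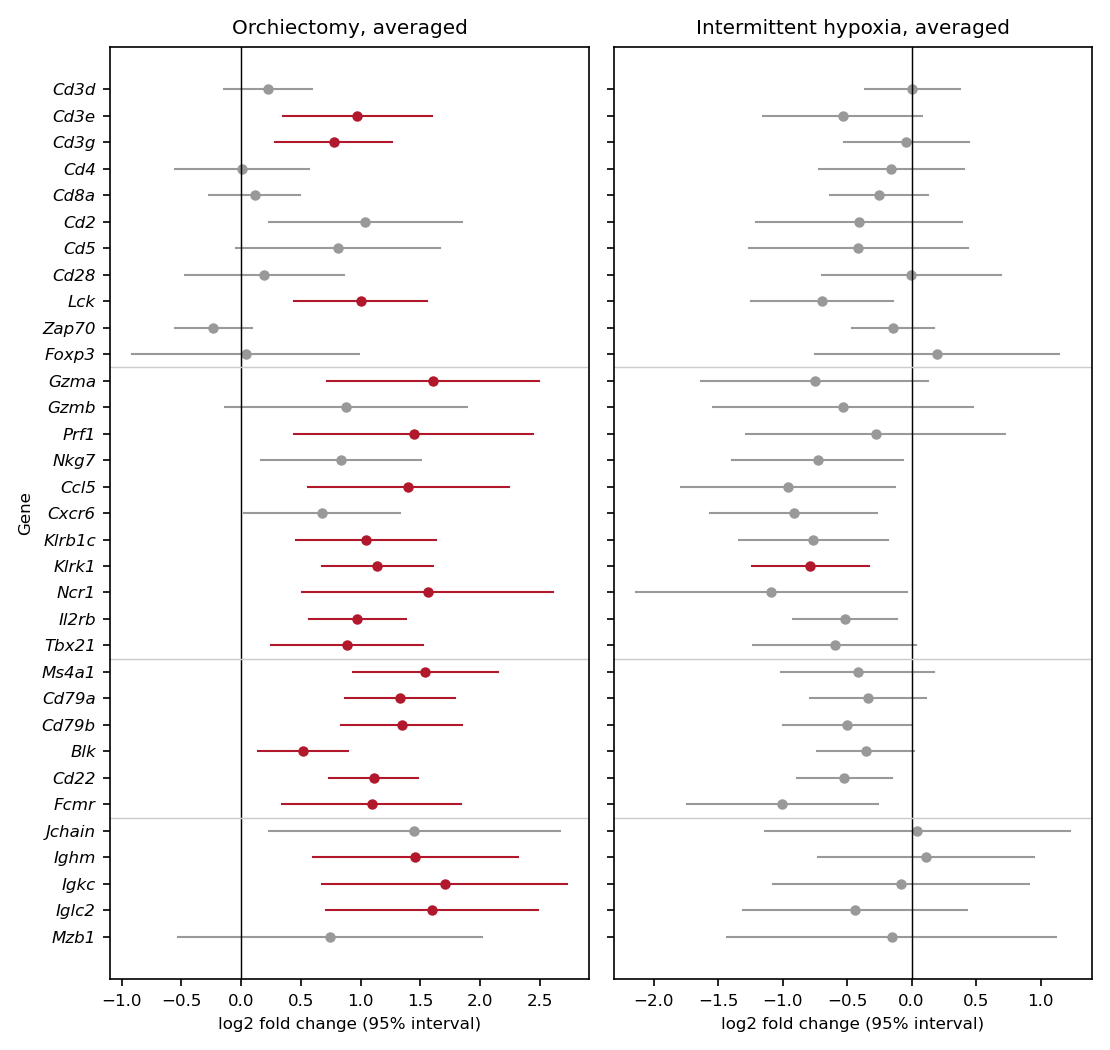
log2 fold change with its 95% interval for the 33 tested markers, for orchiectomy averaged over exposures (left) and intermittent hypoxia averaged over operations (right), with called genes in red and the others in grey and grey lines between marker classes. All 6 B cell markers lie above 0 for orchiectomy, and Klrk1 is the only gene called for intermittent hypoxia.

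Fewer T cell markers passed the test. Averaged over exposures, 3 of 11 rose (Cd3e, Cd3g and Lck), against 11.8% of all genes tested, with a median log2 fold change of 0.23, and 0 of 11 were called in either exposure alone, with 3 at an unadjusted p under 0.05 in each, against 30.3% of all genes in normoxia and 17.2% under intermittent hypoxia (edgeR). Neither coreceptor was called: Cd4 was at 0.01 ± 0.27 with an interval of -0.55 to 0.57, and Cd8a at 0.11 ± 0.18 with an interval of -0.27 to 0.49 (95%). The Cd8a value was 0.58 ± 0.26 in normoxia and -0.35 ± 0.25 under intermittent hypoxia, with an interaction of -0.93 ± 0.36 (unadjusted p = 0.0187, adjusted p = 0.738, edgeR). Foxp3, the transcription factor of regulatory T cells, was at 0.04 ± 0.45, Cd28 at 0.20 ± 0.32 and Cd3d at 0.23 ± 0.18. Cd2 and Cd5 were at 1.04 ± 0.39 and 0.81 ± 0.41 and did not pass (adjusted p = 0.0598 for Cd2 and 0.164 for Cd5, edgeR).

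Lck, a kinase that starts T cell receptor signalling and is also found in NK cells, had 1.67, 1.01, 0.730, 0.904 and 0.932 CPM in ORX_IH, 1.20, 1.24, 0.825, 1.34 and 3.35 CPM in ORX_Nx, 0.682, 0.577, 0.275, 0.408 and 0.497 CPM in Sham_IH and 0.770, 1.21, 0.452 and 0.969 CPM in Sham_Nx. Every ORX_IH library was above every Sham_IH library, while ORX_Nx overlapped Sham_Nx. It rose by 1.00 ± 0.27 averaged (adjusted p = 0.0128, edgeR). Zap70, the most abundant T cell marker per length, had 4.57, 5.41, 3.91, 5.02 and 5.75 CPM in ORX_IH, 3.93, 4.55, 3.70, 5.04 and 9.55 CPM in ORX_Nx, 6.64, 5.47, 5.77, 4.77 and 5.67 CPM in Sham_IH and 4.72, 7.38, 6.52 and 6.94 CPM in Sham_Nx. The groups overlapped, with ORX_Nx 5 highest, and the averaged value was -0.23 ± 0.15 (adjusted p = 0.292, edgeR). Without ORX_Nx 5 alone Zap70 was called as lower, at -0.39 ± 0.10 averaged (adjusted p = 0.0121, edgeR) and at -0.58 ± 0.15 in normoxia (adjusted p = 0.0192, edgeR). Without the 3 libraries that stood apart it was at -0.42 ± 0.11 averaged (adjusted p = 0.0159, edgeR).

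Cd3e, the CD3 epsilon chain, had 0.677, 0.387, 0.358, 0.558 and 0.493 CPM in ORX_IH, 0.552, 0.637, 0.468, 0.593 and 1.84 CPM in ORX_Nx, 0.108, 0.298, 0.275, 0.408 and 0.284 CPM in Sham_IH and 0.304, 0.624, 0.194 and 0.346 CPM in Sham_Nx. Cd3g, the gamma chain, had 0.778, 0.980, 0.248, 0.633 and 0.849 CPM in ORX_IH, 0.519, 0.637, 0.481, 0.859 and 0.782 CPM in ORX_Nx, 0.503, 0.502, 0.275, 0.302 and 0.284 CPM in Sham_IH and 0.304, 0.386, 0.533 and 0.432 CPM in Sham_Nx. For both chains the groups overlapped in each exposure, and ORX_Nx 5 was far above the other libraries for Cd3e but not for Cd3g. The averaged rises were 0.97 ± 0.30 for Cd3e (adjusted p = 0.0264) and 0.77 ± 0.23 for Cd3g (adjusted p = 0.0246, both edgeR). None of these 3 T cell markers was called without the 3 libraries that stood apart (adjusted p between 0.0584 for Lck and 0.119 for Cd3g, edgeR).

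Plasma cell and immunoglobulin genes rose in 3 of 5 cases averaged over exposures (Ighm, Igkc and Iglc2), against 11.8% of all genes tested. Their median log2 fold change was 1.46, against 0.00466 over all genes tested. Their levels differed widely between mice of one group. The summed level of the 5 genes averaged 19.9 ± 25.3 CPM in ORX_IH, 17.3 ± 9.61 CPM in ORX_Nx, 6.06 ± 3.60 CPM in Sham_IH and 6.83 ± 1.78 CPM in Sham_Nx (SD, n = 5, 5, 5 and 4).

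Ighm had 41.3, 6.78, 4.64, 4.51 and 4.58 CPM in ORX_IH, 6.83, 7.47, 7.48, 10.0 and 11.8 CPM in ORX_Nx, 2.66, 2.61, 2.23, 2.36 and 7.14 CPM in Sham_IH and 4.14, 4.63, 2.39 and 5.59 CPM in Sham_Nx. ORX_Nx lay wholly above Sham_Nx, and ORX_IH 1 was several times the next highest library. Igkc had 17.7, 3.40, 1.98, 2.13 and 2.00 CPM in ORX_IH, 2.88, 3.52, 2.92, 18.0 and 5.08 CPM in ORX_Nx, 1.69, 1.60, 0.742, 1.44 and 3.89 CPM in Sham_IH and 1.52, 1.89, 1.34 and 2.35 CPM in Sham_Nx. ORX_Nx was above Sham_Nx in every library, with ORX_Nx 4 and ORX_IH 1 the highest of the 19. Iglc2, a lambda light chain, had 1.53, 0.773, 0.331, 0.211 and 0.356 CPM in ORX_IH, 0.469, 0.300, 0.495, 0.484 and 0.586 CPM in ORX_Nx, 0.215, 0, 0.192, 0.0887 and 0.107 CPM in Sham_IH and 0.142, 0.312, 0.339 and 0.346 CPM in Sham_Nx. Its groups overlapped in both exposures.

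The averaged rises were 1.46 ± 0.41 for Ighm (adjusted p = 0.0171), 1.70 ± 0.49 for Igkc (adjusted p = 0.0189) and 1.60 ± 0.42 for Iglc2 (adjusted p = 0.0123, all edgeR). Iglc2 was also called in ORX_IH against Sham_IH, at 2.50 ± 0.61 (adjusted p = 0.0325, edgeR). That call was lost without ORX_IH 1, ORX_IH 2, Sham_IH 4 or Sham_IH 5, and without the 3 libraries that stood apart the value was 1.86 (adjusted p = 0.101, edgeR). Jchain and Mzb1, a plasma cell chaperone, were at 1.45 ± 0.58 and 0.74 ± 0.61 and were not called. Without the 3 libraries that stood apart Ighm was at 0.69 (adjusted p = 0.0562), Igkc at 0.56 (adjusted p = 0.14) and Iglc2 at 1.21 (adjusted p = 0.0558, all edgeR). Near-identical immunoglobulin constant regions can share reads in transcript-level counting, so the split between Iglc2 and its copies is uncertain.

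ORX_Nx 4 differed from the other libraries in which immunoglobulin genes it held. Per length, IgG heavy chains (Ighg1, Ighg2b, Ighg2c and Ighg3) made up 77.1% of heavy chain level in ORX_Nx 4 and 2.18% to 30.9% in the other 18 libraries, with a median of 9.38%. The ratio of Igkc to Ighm per length was 7.52 in ORX_Nx 4 and 1.39 to 2.65 elsewhere. ORX_IH 1, the second highest library in Igkc, had 9.95% IgG and a ratio of 1.79, within the range of the rest. Ighg2b and Ighg2c were at 20.1 and 10.1 CPM in ORX_Nx 4. Cxcl13, a chemokine that attracts B cells, was at 46.0 CPM in ORX_Nx 4, and its highest level in another library was 4.41 CPM, in ORX_IH 1.

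**Figure D4:**
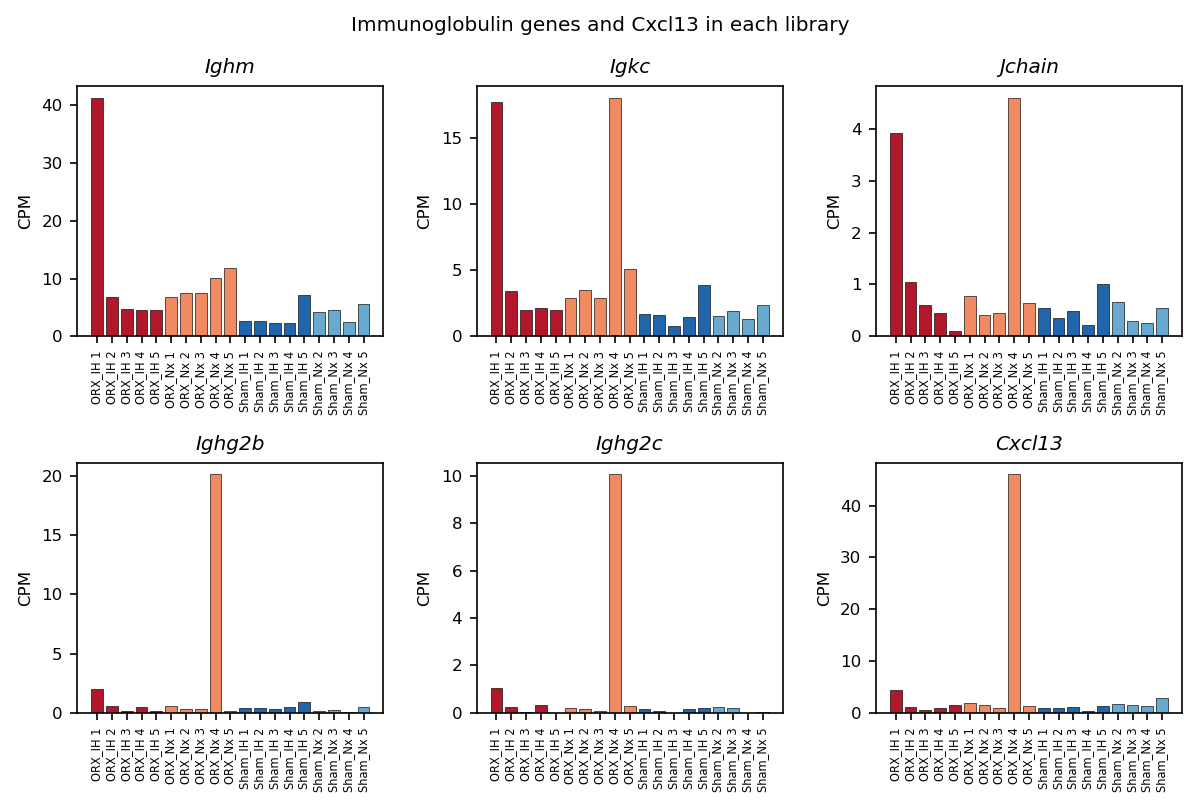
CPM of Ighm, Igkc, Jchain, Ighg2b, Ighg2c and Cxcl13 in each of the 19 libraries (bars coloured by group, linear axes from 0). Ighm peaks at 41.3 CPM in ORX_IH 1, while Ighg2b, Ighg2c and Cxcl13 peak at 20.1, 10.1 and 46.0 CPM in ORX_Nx 4.

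Few of these genes were called for intermittent hypoxia. In Sham_IH against Sham_Nx 0 of 33 markers were called, against 0.303% of all genes tested, with 6 at an unadjusted p under 0.05, against 13.1% of all genes (edgeR). DESeq2 and limma-voom also called 0. All 6 B cell markers had lower fitted levels in Sham_IH, with log2 values between -1.58 ± 0.54 for Fcmr and -0.34 ± 0.26 for Blk, and Ms4a1 was the only marker whose groups did not overlap, as in 8.51% of all genes. In ORX_IH against ORX_Nx 0 of 33 were called by edgeR, against 0.0742% of all genes, with 8 at an unadjusted p under 0.05, against 17.1% of all genes, and DESeq2 called 1, Gzma, and limma-voom 0. Leaving out ORX_Nx 2 gave 2 called markers, Gzma and Klrb1c, both lower in ORX_IH, against 1.31% of all genes called. All 11 cytotoxic and NK markers had lower fitted levels in ORX_IH than in ORX_Nx, with a median log2 value of -1.15, and ORX_Nx 5 was the highest library for 10 of them. The largest such value was -1.98 ± 0.55 for Gzma (adjusted p = 0.0884, edgeR). The interval for Cd79a was -0.43 to 0.77 and for Klrk1 -1.46 to -0.24 (95%).

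Averaged over both operations, 1 of 33 markers fell and 0 rose with intermittent hypoxia, against 2.57% of all genes that fell and 1.96% that rose. The gene was Klrk1, at -0.79 ± 0.22 on the log2 scale (adjusted p = 0.0456, edgeR). Leaving out single libraries gave between 0 and 3 called markers, and Klrk1 kept its call in 5 of the 19 such fits. Fitted values were positive for 4 of the 33 markers, against 50.2% of all genes tested. The median marker was at -0.42 on the log2 scale, against 0.000635 for all genes. Without ORX_Nx 4 and ORX_Nx 5, 12 of 33 values were positive.

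Other genes of the same pathways were described from lists of T cell receptor, NK receptor, B cell, immunoglobulin, chemokine and antigen presentation genes. Averaged over exposures, where 11.8% of all genes tested rose, orchiectomy raised 11 of 18 further B cell identity genes, among them Spib by 1.51 ± 0.35 and Tnfrsf13c, the BAFF receptor, by 1.32 ± 0.44. It raised 8 of 19 T cell receptor and signalling genes, including the receptor constant regions Trbc2 by 1.09 ± 0.30 and Trbc1 by 1.03 ± 0.33, and Bcl11b, a T lineage transcription factor, by 1.12 ± 0.29. Of 15 further NK receptor and effector genes 6 rose, among them Cd244a by 1.84 ± 0.49 and Klrc1, the inhibitory receptor NKG2A, by 1.71 ± 0.41.

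Chemokine, homing and cytokine receptor genes rose in 15 of 27 cases, with Ccr7, a homing receptor for lymphoid tissue, at 1.42 ± 0.29 and Il2rg, the common cytokine receptor chain, at 1.32 ± 0.26. Antigen presentation genes rose in 11 of 15 cases, led by Cd74, the invariant chain of class II molecules, at 1.17 ± 0.36. Other immunoglobulin and plasma cell genes rose in 5 of 11 cases and fell in 1, Derl3, at -1.52 ± 0.50. Of 5 lymphocyte precursor genes 0 rose and 1, Rag2, fell, at -0.38 ± 0.10. Checkpoint and activation genes rose in 4 of 12 cases. Cell cycle genes rose in 2 of 12, a share near that of all genes. In normoxia 10 of 15 antigen presentation, 8 of 27 chemokine and 3 of 18 B cell identity genes rose, against 7.88% of all genes. Under intermittent hypoxia 0 of each were called, while 1.31% of all genes rose. There 0, 11 and 11 of them were at an unadjusted p under 0.05, against 17.2% of all genes. The T cell receptor and NK receptor lists each had 1 rise under intermittent hypoxia, of 19 and 15 genes.

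Ighd, the heavy chain of IgD on naive B cells, was called in each exposure, at 1.45 ± 0.26 in ORX_IH against Sham_IH (adjusted p = 0.00375, edgeR) and 0.82 ± 0.26 in ORX_Nx against Sham_Nx (adjusted p = 0.0449, edgeR). It lay at 1.07 to 1.67 CPM in ORX_IH, 1.39 to 2.93 CPM in ORX_Nx, 0.284 to 0.816 CPM in Sham_IH and 0.824 to 1.34 CPM in Sham_Nx, with no overlap between orchiectomized and sham livers within an exposure. Averaged over operations, intermittent hypoxia lowered Klrc1, with a log2 value of -1.66 ± 0.40, Ighd, at -0.74 ± 0.18, and Prdm1, the plasma cell transcription factor BLIMP1, at -0.98 ± 0.24. It also lowered 5 of 12 cell cycle genes, against 2.57% of all genes tested, with Ccnb1 at -2.19 ± 0.37 and Mki67 at -1.41 ± 0.31. In the same comparison 2 of 27 chemokine, homing and cytokine receptor genes rose and 3 fell. Of 18 further B cell identity genes and 19 T cell receptor and signalling genes 0 were called, with 5 and 6 of them at an unadjusted p under 0.05 (edgeR).

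Markers of several other blood cells also rose with orchiectomy. Averaged over exposures, orchiectomy raised 11 of 13 macrophage and Kupffer cell genes, 5 of 6 monocyte, 3 of 8 dendritic cell and 2 of 5 neutrophil genes, against 11.8% of all genes tested. Of 7 erythroid genes 2 fell and 0 rose, and of 3 megakaryocyte and platelet genes 0 were called. In ORX_Nx against Sham_Nx 11 of 13 macrophage, 4 of 6 monocyte, 3 of 8 dendritic cell and 2 of 5 neutrophil genes rose. There 7.88% of all genes tested rose. In ORX_IH against Sham_IH 0 of 13, 0 of 6, 0 of 8 and 0 of 5 were called, while 1.31% of all genes tested rose. The summed macrophage level was 262 to 417 CPM in ORX_IH, 284 to 1186 CPM in ORX_Nx, 189 to 251 CPM in Sham_IH and 213 to 343 CPM in Sham_Nx, with no defining marker at 0 in any library. Lymph node stroma genes rose in 1 of 4 cases averaged over exposures. They summed to 2.44 to 9.84 CPM in ORX_IH, 3.66 to 49.2 CPM in ORX_Nx, 2.15 to 3.85 CPM in Sham_IH and 3.12 to 4.55 CPM in Sham_Nx. Glycam1 was at 0 in every ORX_Nx, Sham_IH and Sham_Nx library and Madcam1 in every ORX_IH library.

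Pancreatic acinar genes fell in 10 of 12 cases in the averaged comparison, against 10.1% of all genes tested. They summed to 5.65 to 237.6 CPM in ORX_IH, 4.22 to 7.26 CPM in ORX_Nx, 11.1 to 1367 CPM in Sham_IH and 6.57 to 579 CPM in Sham_Nx. Skeletal muscle genes rose in 8 of 11 cases in ORX_IH against Sham_IH, against 1.31% of all genes tested. They summed to 1.12 to 954.6 CPM in ORX_IH and 1.26 to 1.79 CPM in Sham_IH. The part of these cells in the lymphocyte results was not tested, beyond leaving out libraries. Without the 4 libraries highest in muscle genes 6 of the 34 markers then tested were called for orchiectomy averaged, against 7.82% of all genes. Without the 3 highest in pancreatic genes 9 of 33 were called, against 12.7%. Klrk1, Il2rb, Ms4a1, Cd79a, Cd79b and Cd22 were called for orchiectomy averaged under every setting tried.

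**Figure D5:**
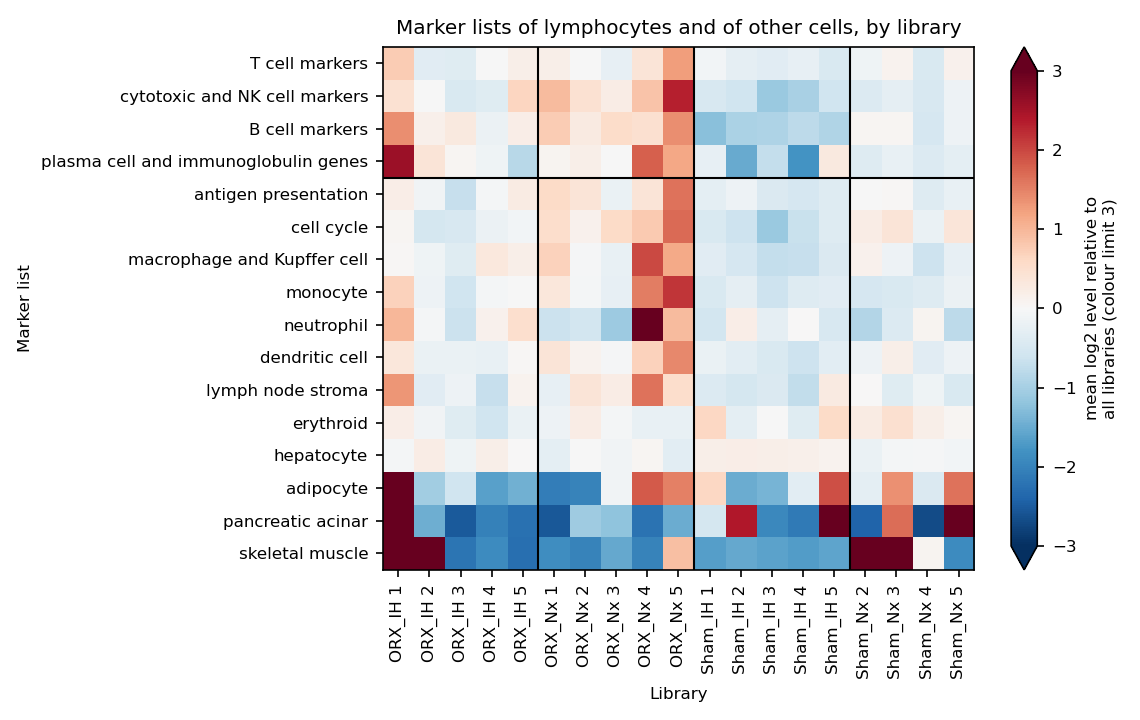
Mean log2 level of each marker list relative to all libraries (colour, limited at 3), with the 4 lymphocyte classes above the line and other lists below, for the 19 libraries in group order. ORX_IH 1 is high in B cell, immunoglobulin, muscle, pancreatic and adipocyte genes, and ORX_Nx 4 and ORX_Nx 5 are high in macrophage and monocyte genes.

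An overall F-test across the 4 groups stands in the authors' deposited table, with q under 0.05 for 7 of the 36 markers, against 4.03% of the 35991 genes with a q-value. Among the 36 markers, the lowest q-values in the authors' deposited table are 0.00658 for Cd79a, 0.00775 for Cd22, 0.0128 for Klrk1, 0.0153 for Cd79b and 0.0187 for Ms4a1.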

How the data were processed

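The 36 markers and the other gene lists were chosen with earlier results of these data known. Libraries were made from poly(A)-selected RNA of frozen liver with strand-specific kits, per the labels' protocols. The authors deposited estimated counts per gene from kallisto 0.46.1 with genome build GRCm39, per the submitters' processing notes, after bcl2fastq 2.20, fastp 0.23.2, FastQC 0.11.9 and MultiQC 1.12. Of these expected counts 27.5% were not whole, and all were rounded before testing. The authors also deposited a log2 expression table with an F-statistic (a score), a p-value and a q-value per gene, normalized by TMM going by its name, with no further steps given in the sources used here.

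Genes were kept by filterByExpr with a minimum count of 10, scaled by TMM, and fitted over all 4 groups by edgeR 4.0.16 in R 4.3.3. Quasi-likelihood F-tests gave p-values adjusted over all 16164 genes, and genes with an adjusted p under 0.05 were called. The standard error is the log2 fold change divided by the square root of F, and 95% intervals use its degrees of freedom. CPM use TMM library sizes. The test was checked on simulated data. DESeq2 1.42.0 and limma 3.58.1 (voom, and trend on the log2 table) were alternatives. Values per library are given for every marker called in a comparison and for the 2 most abundant of each class; from other lists at most 3 called genes per comparison are named, those with the largest change. The IgG genes and Cxcl13 in ORX_Nx 4 were named after their values were seen.

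Replicate libraries differed by more than sampling noise in all 36 pairs within groups (chi-square per degree of freedom 19.43 to 189.8). The 124 rows that share a symbol were named by identifier.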

Additional observations from a re-analysis of the deposited data

Results flagged for a closer look

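A library lay far from the others of its group, by Dixon's criterion, in 27 of 132 combinations of marker and group, or 20.5%. The cut-offs would give about 1 in 20 for independent, normally distributed values. These were untransformed CPM, and the markers share libraries, so the rate expected by chance is not known.

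ORX_Nx 5 accounted for 10 of these, each as the highest of its group: Ccl5 at 8.10 CPM, Zap70 at 9.55 CPM, Klrk1 at 4.16 CPM, Gzma at 3.35 CPM, Lck at 3.35 CPM, Gzmb at 2.32 CPM, Cd79b at 2.18 CPM, Cd3e at 1.84 CPM, Prf1 at 1.06 CPM and Foxp3 at 0.559 CPM. They include T cell, cytotoxic and B cell genes.

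ORX_IH 1 accounted for 7, also as the highest: Ighm at 41.3 CPM, Igkc at 17.7 CPM, Jchain at 3.93 CPM, Ms4a1 at 2.90 CPM, Cd79a at 2.82 CPM, Fcmr at 1.12 CPM and Cd28 at 0.677 CPM. Of these genes 6 belong to B cells and plasma cells.

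ORX_Nx 4 was the highest of its group for Igkc at 18.0 CPM and Jchain at 4.60 CPM.

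The other 8 lay in sham groups. Sham_IH 5 was high in Ighm at 7.14 CPM and Tbx21 at 0.249 CPM, Sham_IH 3 in Cd4 at 1.18 CPM, and Sham_IH 1 in Gzma at 0.323 CPM. Sham_IH 1 was low in Ms4a1 at 0.144 CPM, Sham_Nx 4 in Cd2 at 0.178 CPM, Sham_Nx 5 in Blk at 0.519 CPM, and Sham_Nx 2 in Iglc2 at 0.142 CPM.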

How the results depend on the processing

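Of 33 called values, 7 kept their call under every setting and 17 without each single library, and 0 reversed. Zap70, not called with all libraries, was called as lower for orchiectomy averaged without ORX_Nx 5 and in the 3 other settings that leave it out among others. Markers called in ORX_Nx against Sham_Nx numbered 7. They numbered 11 with DESeq2, where 19% of all genes were called, and 3 with only the compared groups fitted, where 5.98% were. The count was 1 with library numbers 1 to 16 (without mouse 5 of each group), against 6.76% of all genes. It was 2 without ORX_Nx 4 and ORX_Nx 5, against 9.04%, with Zap70 among them as lower. In these 2 settings the share of markers called was below that of all genes. Removing the 4 libraries with most muscle RNA gave 1, against 2.53%. Without ORX_IH 1, ORX_Nx 4 and ORX_Nx 5, a setting chosen after seeing the data, it was 4, against 9.09%, again with Zap70 as lower. In ORX_IH against Sham_IH the markers called numbered 5. With DESeq2 they numbered 8 (5.38% of all genes), with limma-voom 2 (2.23%) and with the replicate block 3 (2.14%). Without ORX_Nx 4 and ORX_Nx 5 they numbered 9 (5.58%). Without the muscle libraries they numbered 2 (0.641%) and without the 3 highest in pancreatic genes 3 (0.974%). In ORX_IH against ORX_Nx they numbered 0, and 1 with DESeq2 (4.56% of all genes). For orchiectomy averaged they numbered 20. With limma-voom they numbered 10 (18.4% of all genes), with the replicate block 13 (19.4%) and with library numbers 1 to 16 also 13 (15%). Without ORX_Nx 4 and ORX_Nx 5 they numbered 13 (18.2%), without the muscle libraries 6 (7.82%) and without the pancreatic ones 9 (12.7%). Without ORX_IH 1, ORX_Nx 4 and ORX_Nx 5 they numbered 8 (16.8%). Zap70, as lower, is counted in that 8. It is also counted with library numbers 1 to 16 and without ORX_Nx 4 and ORX_Nx 5. For intermittent hypoxia averaged the count was 1. It was 2 with DESeq2 (9.51% of all genes) and 2 without ORX_IH 1, ORX_Nx 4 and ORX_Nx 5 (3.86%). It was 0 with no scaling, no filter, the replicate block, library numbers 1 to 16, without ORX_Nx 4 and ORX_Nx 5, and without the muscle libraries. The cause of these shifts was not tested, and settings that leave out libraries also test with fewer samples.

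Leaving out each library in turn gave 2 to 11, 2 to 8 and 0 to 2 called markers in the first 3 comparisons above, 14 to 22 for orchiectomy averaged and 0 to 3 for intermittent hypoxia averaged. It gave 0 to 0 in Sham_IH against Sham_Nx and in the interaction, where every other setting also gave 0. The median marker in the interaction was -0.07 with all libraries and 0.45 without ORX_Nx 4 and ORX_Nx 5. Same-numbered libraries correlated at -0.19 to 0.37 (median 0.014, 27 pairs of libraries). Libraries with different mouse numbers correlated at -0.27 to 0.33 (median 0.0032, 108 pairs). Of 19 libraries, 8 correlated best with their own number. The count expected by chance was not tested, so whether mouse numbers paired the libraries was not settled. Most markers lay under 2 CPM, and levels under 0.108 CPM were not distinguishable from 0 in the shallowest library.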
